A study of Mus musculus with 10 samples.

Results

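Glycolysis and fructose use were followed in mouse liver through 9 genes chosen by name, of which 8 were measured: Khk, Tkfc, Gckr, Hk2, Pfkl, Pfkfb3, Pklr and Ldha, among 22180 genes tested. Each had 1 transcript cluster with a single gene symbol. Pfkfb1 had no such cluster and was not analysed here. The 9 genes were chosen with earlier results of these data known, so their counts beside those of all genes only describe them. Levels are RMA values on the log2 scale, so a difference of 1 is a doubling. The 10 arrays, 1 per sample, came from livers of male mice, which had received an adeno-associated virus (aav-tbg) some 2 weeks earlier and were fasted before collection. The vector carried either Fst288, a follistatin isoform, or GFP as the control. Follistatin is secreted and neutralises activins, and the TBG promoter is used to drive expression in hepatocytes. The groups were LTKO FST288 (n = 2), LTKO GFP (n = 2), HFD FST288 (n = 3) and HFD GFP (n = 3), where HFD stands for wild-type mice kept on a high-fat diet. What LTKO abbreviates is not stated in the labels; elsewhere it denotes liver deletion of Irs1, Irs2 and Foxo1 together. The diet of the LTKO mice, the Cre driver and the ages are not given in the sources used here, so genotype and diet cannot be told apart in any LTKO comparison. Nothing states that each sample was a separate animal, so the p-values rest on a spread between samples that may be technical.

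In the liver, glucose enters by the transporter GLUT2, is phosphorylated and runs through phosphofructokinase and pyruvate kinase to pyruvate. Fructose enters below phosphofructokinase: ketohexokinase (Khk) phosphorylates it, the product is split, and triokinase (Tkfc) phosphorylates the glyceraldehyde that is formed. Among the enzymes of these routes, transcription of some is known to respond to insulin through SREBP-1c. That of some responds to sugar itself through ChREBP (gene Mlxipl), which binds carbohydrate response elements with its partner Mlx.

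Stretches of 250 bases before the start site are shown for the members whose window held a sequence of the type that ChREBP and related factors bind, because most of these genes differed between LTKO and HFD livers. They come from RefSeq (GRCm38.p6), which had 15 windows for the 9 genes. The letters searched on both strands were CACGTG, the E box, and CANGNG and CNCNTG set 5 bases apart, the loose form of the carbohydrate response element, in which no whole E box is needed. Capitals mark the matches.
Pklr: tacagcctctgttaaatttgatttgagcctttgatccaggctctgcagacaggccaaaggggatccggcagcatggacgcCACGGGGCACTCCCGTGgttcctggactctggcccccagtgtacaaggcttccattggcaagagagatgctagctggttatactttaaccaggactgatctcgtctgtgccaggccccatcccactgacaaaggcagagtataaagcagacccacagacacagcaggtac
Khk: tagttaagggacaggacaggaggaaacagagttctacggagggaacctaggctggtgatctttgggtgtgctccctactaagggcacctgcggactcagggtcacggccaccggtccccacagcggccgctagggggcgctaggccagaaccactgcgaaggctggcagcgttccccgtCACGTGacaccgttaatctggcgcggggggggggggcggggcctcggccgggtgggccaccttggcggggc
Pfkfb3: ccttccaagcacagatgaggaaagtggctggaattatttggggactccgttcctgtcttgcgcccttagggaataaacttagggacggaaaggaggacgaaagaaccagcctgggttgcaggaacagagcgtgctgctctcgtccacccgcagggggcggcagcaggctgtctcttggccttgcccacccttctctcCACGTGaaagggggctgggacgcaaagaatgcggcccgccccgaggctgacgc
Ldha: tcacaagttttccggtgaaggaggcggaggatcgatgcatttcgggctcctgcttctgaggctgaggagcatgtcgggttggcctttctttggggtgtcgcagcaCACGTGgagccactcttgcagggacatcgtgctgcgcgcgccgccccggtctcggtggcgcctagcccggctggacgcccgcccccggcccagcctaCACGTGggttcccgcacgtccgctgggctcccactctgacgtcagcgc
The Pklr stretch is chr3:89136373-89136622 on the plus strand, before the more downstream of its 2 starts, and its match runs from position -170 to -154, counted back from -1 at the last base before the start. The Khk stretch is chr5:30921309-30921558 on the plus strand, with an E box at -71 to -66. The Pfkfb3 stretch is chr2:11502091-11502340 on the minus strand, with an E box at -53 to -48. The Ldha stretch is chr7:46845554-46845803 on the plus strand, with E boxes at -145 to -140 and at -48 to -43. Of all 32851 windows of this length, 6.02% held the E box and 0.454% the carbohydrate response element. The other 11 windows of these genes, among them those of Gckr, Tkfc, Hk2 and Pfkl, held neither set of letters. A match describes the sequence only.

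The labels were checked on the vector's gene and the targeted genes. Fst ranged from 5.78 to 6.85 on the FST288 arrays and from 5.22 to 5.39 on the GFP arrays. Irs1 lay at 3.02 to 3.35 on the LTKO arrays and 4.75 to 5.14 on the HFD arrays, Irs2 at 2.49 to 3.36 and 4.02 to 4.37, and Foxo1 at 4.58 to 5.15 and 6.60 to 6.86. The median of 10 hepatocyte markers was 11.61 to 11.83 on the LTKO arrays and 11.83 to 11.94 on the HFD arrays. Some arrays stood apart in markers of other cells. The median of 8 pancreatic acinar markers was 8.10 and 6.82 on HFD FST288 replicates 2 and 3, against 2.14 to 2.5 on the other arrays. The median of 10 Kupffer cell markers was 7.36 on LTKO FST288 replicate 2, against 5.59 to 6.08 elsewhere. In whole liver, fewer cells of a type and less RNA per cell cannot be told apart.

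The comparison of LTKO with HFD livers, both with GFP, asks how the sugar-use genes differ between these groups. Genotype and diet cannot be told apart in it. Pyruvate kinase, ketohexokinase, triokinase and Pfkfb3 were lower in LTKO GFP livers and lactate dehydrogenase A was higher. By limma, 4 of the 8 members fell and 1 rose, against 6.40% and 6.69% of all genes (13.1% in either direction). The median change of the members was -0.56, against 0.01 for all genes.

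Pklr, the liver and red cell pyruvate kinase, makes pyruvate in the last step of glycolysis. It read 6.35 and 6.99 in LTKO GFP livers, against 9.56, 9.70 and 9.84 in HFD GFP livers. The groups were far apart: the highest LTKO GFP array lay well under the lowest HFD GFP array. The means were 6.67 ± 0.45 in LTKO GFP livers (SD, n = 2) and 9.70 ± 0.14 in HFD GFP livers (SD, n = 3). The fall was 8.15-fold, a log2 change of -3.03 ± 0.17 (SE; limma, adjusted p = 6.77e-08), the largest among the 8 members.

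Khk, the first enzyme of fructose use, read 8.99 and 8.72 in LTKO GFP livers, against 9.89, 9.82 and 9.88 in HFD GFP livers. Both LTKO arrays were lower, and the fall was 2.02-fold (log2 change -1.01 ± 0.09; limma, adjusted p = 7.06e-06). Tkfc, the triokinase further down the same route, read 7.16 and 7.57 in LTKO GFP livers, against 8.26, 8.65 and 8.39 in HFD GFP livers. Its groups did not overlap either, and it fell 2.10-fold (-1.07 ± 0.13; limma, adjusted p = 0.000116).

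Pfkfb3 makes the sugar bisphosphate that activates phosphofructokinase. It read 3.70 and 3.44 in LTKO GFP livers, against 4.93, 5.08 and 4.65 in HFD GFP livers, with no overlap. The change was -1.31 ± 0.23 (limma, adjusted p = 0.00158). The LTKO values lie near the median of all genes, 3.10 to 3.17 per array, where folds on an array are compressed.

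Ldha, which interconverts pyruvate and lactate, went the other way. It read 6.0 and 5.93 in LTKO GFP livers, against 5.39, 5.27 and 5.32 in HFD GFP livers. Both LTKO arrays were higher, and the rise was 1.56-fold (0.64 ± 0.11; limma, adjusted p = 0.0013). Near-identical pseudogene copies of Ldha exist, and a cluster's value may include their transcripts.

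The remaining members gave no call. Gckr, a regulatory protein of hepatic glucose phosphorylation, read 7.66 and 7.82 in LTKO GFP livers, against 7.64, 7.89 and 8.03 in HFD GFP livers. These ranges overlap, and the change was -0.11 with a 95% interval from -0.37 to 0.14 (limma, adjusted p = 0.627). For Pfkl, the liver phosphofructokinase, the change was 0.03 (interval -0.28 to 0.35; limma, adjusted p = 0.924). For Hk2, the hexokinase best known from muscle and fat, it was 0.03 (interval -0.28 to 0.33; limma, adjusted p = 0.94). Hk2 read 3.17 to 3.52 on all 10 arrays, again near the median of all genes.

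**Figure D1:**
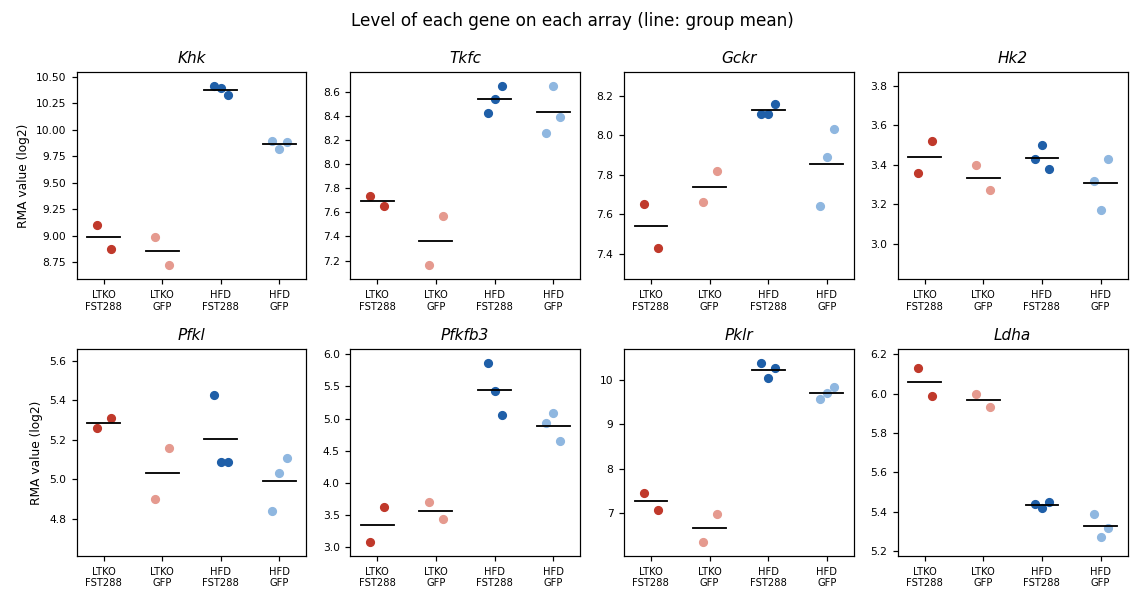
RMA value (log2, y axis, scaled per gene) of the 8 measured genes on each of the 10 arrays, by group; points are arrays and lines are group means. Pklr, Khk, Tkfc and Pfkfb3 lie lower on every LTKO array than on every HFD array, and Ldha lies higher.

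With the FST288 vector in both, LTKO and HFD livers differed in the same genes and in Gckr as well. By limma, 5 of the 8 members fell and 1 rose, against 5.29% and 5.05% of all genes (10.3% in either direction). The median change was -0.72, against 0.00 for all genes. The arrays are other ones than in the GFP comparison, apart from the shared estimate of the spread.

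Pklr read 7.46 and 7.08 in LTKO FST288 livers, against 10.37, 10.04 and 10.25 in HFD FST288 livers. It fell 7.72-fold (-2.95 ± 0.17; limma, adjusted p = 1.1e-07). Khk read 9.10 and 8.87 in LTKO FST288 livers, against 10.41, 10.39 and 10.33 in HFD FST288 livers, and fell 2.62-fold (-1.39 ± 0.09; limma, adjusted p = 3.6e-07). In both genes the groups were separated by more than their own ranges.

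Pfkfb3 read 3.08 and 3.62 in LTKO FST288 livers, against 5.86, 5.42 and 5.06 in HFD FST288 livers, a change of -2.10 ± 0.23 (limma, adjusted p = 3.51e-05). Tkfc read 7.74 and 7.65 in LTKO FST288 livers, against 8.43, 8.54 and 8.65 in HFD FST288 livers (-0.85 ± 0.13; limma, adjusted p = 0.000814). Neither gene overlapped between the groups. Gckr read 7.65 and 7.43 in LTKO FST288 livers, against 8.11, 8.11 and 8.16 in HFD FST288 livers. It fell 1.5-fold (-0.58 ± 0.12; limma, adjusted p = 0.005), with both LTKO arrays below the narrow HFD range. Ldha read 6.13 and 5.99 in LTKO FST288 livers, against 5.44, 5.42 and 5.45 in HFD FST288 livers, and rose 1.54-fold (0.62 ± 0.11; limma, adjusted p = 0.00161). Changes in Pfkl (0.08, interval -0.24 to 0.39) and Hk2 (0.00, interval -0.31 to 0.31) were not called (limma, adjusted p = 0.848 and 0.999).

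Markers of other cells moved with this comparison: by limma 8 of the 10 Kupffer markers rose, and 4 of the 8 acinar markers fell. Over all genes 5.05% rose and 5.29% fell. Of 10 stellate cell markers 4 rose (median change 0.39), and of the 10 hepatocyte markers 3 fell and 1 rose (median change -0.10). In LTKO GFP against HFD GFP livers, by limma 2 stellate markers rose and 1 fell (median change 0.26), and 2 hepatocyte markers fell. Over all genes 6.69% rose and 6.40% fell there. By limma 0 Kupffer and 0 acinar markers were called in it. At an unadjusted p under 0.05 stood 2 Kupffer and 0 acinar markers, against 5582 of the 22180 genes. The part of these cells in the member values was not tested as such. Without HFD FST288 replicates 2 and 3, which leaves 1 array in that group, taken to vary like the other groups, 3 members were called and the changes were -0.57 in Gckr, -0.74 in Tkfc and 0.62 in Ldha (limma, adjusted p = 0.124, 0.0621 and 0.0576). Gckr was also not called with the acinar median as a covariate (-0.57, limma, adjusted p = 0.0866) or without LTKO FST288 replicate 2 (-0.47, limma, adjusted p = 0.0691). Pklr, Khk and Pfkfb3 were called in each of the 21 alternative fits.

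**Figure D2:**
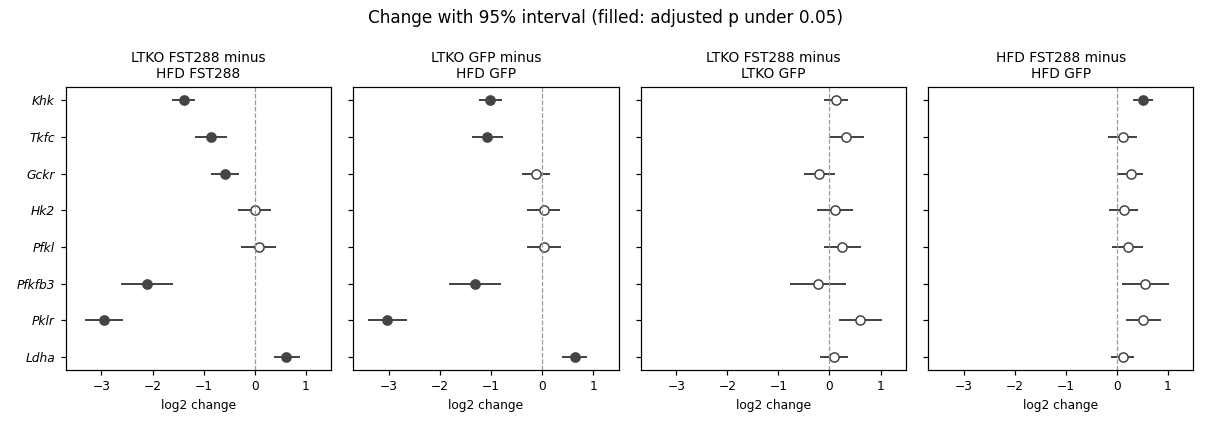
Log2 change of the 8 genes in 4 comparisons, with 95% intervals of the limma fit; filled points have an adjusted p under 0.05. Pklr has the largest falls, -2.95 and -3.03, in the LTKO comparisons, and Khk is the only filled point in the FST288 comparisons.

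The comparison of HFD FST288 with HFD GFP livers asks what the follistatin vector does to these genes on a high-fat diet. Khk was the member that rose: by limma 1 of 8 was called and none fell, against 0.577% of all genes upwards and 0.419% downwards (0.996% in either direction). All 8 changes were above 0, as were those of 10910 of the 22180 genes. The median was 0.24, against 0.00 for all genes. At an unadjusted p under 0.05 stood 4 members, Khk, Pklr, Pfkfb3 and Gckr, against 12.0% of all genes. On 4 members, Khk, Pklr, Gckr and Ldha, every FST288 array was above every GFP array, which held for 9.30% of all genes.

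Khk read 10.41, 10.39 and 10.33 in HFD FST288 livers, against 9.89, 9.82 and 9.88 in HFD GFP livers. The spread within each group was small beside the gap, with an SD of 0.04 in each (n = 3). The rise was 1.42-fold (0.51 ± 0.08; limma, adjusted p = 0.009). All 8 acinar markers were also higher on average with FST288 (median change 3.27; by limma 0 were called, 8 at an unadjusted p under 0.05). Replicate 1, the HFD FST288 array without high acinar markers, had the highest value of the 3. With it alone in the group the change was 0.54, against 0.51 with all 3 arrays. A lone array has no spread of its own. With the acinar median as a covariate the change was 0.54 and not called (limma, adjusted p = 0.202). The part of acinar cells in the Khk change was not tested as such. The call was also lost without HFD FST288 replicate 2 (0.50, limma, adjusted p = 0.0549).

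Pklr read 10.37, 10.04 and 10.25 in HFD FST288 livers, against 9.56, 9.70 and 9.84 in HFD GFP livers. The groups did not overlap; the change was 0.52 (95% interval 0.19 to 0.84) and missed the threshold over all genes (limma, adjusted p = 0.15). In a fit of the HFD arrays alone it was called (limma, adjusted p = 0.00991). Pfkfb3 read 5.86, 5.42 and 5.06 in HFD FST288 livers, against 4.93, 5.08 and 4.65 in HFD GFP livers. Here the lowest FST288 array lay within the GFP range (0.56, interval 0.12 to 1.00; limma, adjusted p = 0.262).

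Gckr read 8.11, 8.11 and 8.16 in HFD FST288 livers, against 7.64, 7.89 and 8.03 in HFD GFP livers, a change of 0.27 (interval 0.05 to 0.50; limma, adjusted p = 0.298). Its FST288 values lay closer together than its GFP values. The changes in Pfkl (0.21), Hk2 (0.13), Tkfc (0.11) and Ldha (0.11) had adjusted p from 0.585 to 0.794 by limma. Their 95% intervals all held 0, and ran from -0.15 at the lowest to 0.49 at the highest.

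In LTKO livers the same vector gave no call among the members. By limma 0 of 8 passed over all genes, against 0.167% of all genes, and 2, Pklr and Tkfc, had an unadjusted p under 0.05, against 9.98% of all genes. The members' median change was 0.12, against -0.02 for all genes. Pklr read 7.46 and 7.08 in LTKO FST288 livers, against 6.35 and 6.99 in LTKO GFP livers. Both FST288 arrays were higher, with a change of 0.60 (interval 0.20 to 1.00; limma, adjusted p = 0.284). It was 0.28 without LTKO GFP replicate 1 and 0.92 without LTKO GFP replicate 2.

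Tkfc read 7.74 and 7.65 in LTKO FST288 livers, against 7.16 and 7.57 in LTKO GFP livers (0.33, interval 0.01 to 0.65; limma, adjusted p = 0.478). It was 0.13 without LTKO GFP replicate 1 and 0.53 without LTKO GFP replicate 2. Pfkl read 5.26 and 5.31 in LTKO FST288 livers, against 4.90 and 5.16 in LTKO GFP livers (0.25, interval -0.09 to 0.60; limma, adjusted p = 0.665). In Pklr, Tkfc and Pfkl every FST288 array was above every GFP array, which with 2 arrays a group held for 16.8% of all genes. Gckr went the other way, at 7.65 and 7.43 in LTKO FST288 livers, against 7.66 and 7.82 in LTKO GFP livers (-0.20, interval -0.48 to 0.08; limma, adjusted p = 0.672). That order held for 21.1% of all genes. The change in Khk was 0.13 (interval -0.08 to 0.35; limma, adjusted p = 0.729), with overlapping ranges. Pfkfb3 read 3.08 and 3.62 in LTKO FST288 livers, against 3.70 and 3.44 in LTKO GFP livers (-0.22, interval -0.76 to 0.31), and leaving out 1 array gave values on both sides of 0, from -0.50 to 0.05. The changes in Hk2 (0.10, interval -0.23 to 0.44) and Ldha (0.09, interval -0.16 to 0.35) were smaller, and the adjusted p of these 3 ran from 0.835 to 0.889 by limma. All 10 Kupffer markers were higher on average with FST288 (median change 0.80; by limma 0 were called, 7 at an unadjusted p under 0.05), with the high values on replicate 2; their part in the member values was not tested as such.

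Whether the FST288 effect differed between the backgrounds was tested as the LTKO effect minus the HFD effect. By limma 0 of 8 members passed, against 0.216% of all genes, and 3 had an unadjusted p under 0.05, against 12.6% of all genes. These were Pfkfb3 (-0.78, interval -1.48 to -0.09), Gckr (-0.47, interval -0.83 to -0.11) and Khk (-0.38, interval -0.66 to -0.10), with adjusted p of 0.339, 0.276 and 0.267 by limma. For Pklr the difference was 0.08 (interval -0.44 to 0.59; limma, adjusted p = 0.932). The call of Khk in HFD livers and its absence in LTKO livers is therefore not shown to be a difference between them.

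The other genes of sugar use came from lists of textbook members: 20 of 25 further glycolysis genes, 5 of 7 further fructose genes and 8 of 9 regulators were measured. These lists too were chosen with earlier results of these data known. Of the 5 fructose genes, by limma 2 fell and 1 rose in LTKO GFP against HFD GFP livers, where 6.40% of all genes fell and 6.69% rose. With FST288 in both, 2 fell and 0 rose, where 5.29% of all genes fell and 5.05% rose. Those that fell in both were Slc2a2 and Slc2a5, among 3 sugar transporters measured. The third, Slc2a8, was not called, at 0.13 with GFP and 0.14 with FST288 (limma, adjusted p = 0.604 and 0.632). Slc2a2, the gene of GLUT2, read 9.0 and 9.25 in LTKO GFP livers, against 10.70, 10.64 and 10.68 in HFD GFP livers, and fell 2.93-fold (-1.55 ± 0.08; limma, adjusted p = 2.26e-08). With FST288 in both it fell 2.72-fold (limma, adjusted p = 5.53e-08). The groups of both comparisons were wide apart, with little spread inside any group.

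Slc2a5, the gene of the fructose transporter GLUT5, read 3.41 and 3.83 in LTKO GFP livers, against 4.36, 4.59 and 4.39 in HFD GFP livers, and fell by 0.83 on the log2 scale (limma, adjusted p = 0.0124). That call was lost without LTKO GFP replicate 1 (-0.62, limma, adjusted p = 0.145). With FST288 it read 3.97 and 3.23 in LTKO livers, against 5.29, 5.19 and 5.17 in HFD livers (-1.62 ± 0.20; limma, adjusted p = 9.98e-05). Within HFD livers the FST288 arrays all lay above the GFP arrays (0.77, interval 0.39 to 1.15; limma, adjusted p = 0.0648). That change passed in the fit of the HFD arrays alone (limma, adjusted p = 0.00432) and in 4 other alternatives. In LTKO livers the change was -0.02 (interval -0.49 to 0.45; limma, adjusted p = 0.989). The difference of the effects, -0.79 (limma, adjusted p = 0.277), was called without LTKO FST288 replicate 1 (-1.16, limma, adjusted p = 0.0401). Glyctk, a kinase of glycerate from fructose and serine breakdown, rose by 0.62 in LTKO GFP against HFD GFP livers (limma, adjusted p = 0.00918). Without LTKO GFP replicate 2 the rise was 0.50 and not called (limma, adjusted p = 0.1). With FST288 in both, Glyctk stood at -0.21, with overlapping groups (limma, adjusted p = 0.465). The difference of its FST288 effects, -0.83, was not called (limma, adjusted p = 0.114).

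Among the 20 glycolysis genes, by limma 2 fell and none rose in LTKO GFP against HFD GFP livers, Pfkfb2 (-0.58) and Gapdh (-0.43), while the median change was 0.01. That is 2 of 20, where 6.40% of all genes fell and 13.1% were called in either direction, so the count does not set these genes apart. Pfkfb2 is another enzyme that makes the activator of phosphofructokinase, and Gapdh is the dehydrogenase of mid-glycolysis. The call of Pfkfb2 was lost without LTKO GFP replicate 1 (-0.44, limma, adjusted p = 0.119). With FST288 in both, 4 fell: Pfkfb2 (-0.76), Gapdh (-0.51), Pgk1 (-0.51) and Pgam1 (-0.55), where 5.29% of all genes fell, with a median of 0.04 over the list. Pgk1 and Pgam1 encode the kinase and mutase that follow Gapdh. With the mean of its 2 clusters in place of the brightest, the change in Pgam1 was -0.20 (limma, adjusted p = 0.481), and without both acinar-high arrays it was -0.50 (limma, adjusted p = 0.102). Gapdh and Pgam1 have near-identical copies that an array may not separate. Their values come from the brightest of 3 and of 2 clusters. The genome positions of these clusters were not checked, so either value may stand for a copy. The muscle-type kinase Pkm was not called, at 0.40 (interval 0.10 to 0.71; limma, adjusted p = 0.101). With FST288 against GFP, 0 of the 20 were called by limma in HFD livers, against 0.996% of all genes. In LTKO livers 0 were called too, against 0.167%. At an unadjusted p under 0.05 stood 2 in HFD livers and 1 in LTKO livers, against 12.0% and 9.98% of all genes. Pgk1 came closest in HFD livers (0.28 ± 0.06; limma, adjusted p = 0.0539), and was called in 8 of the 21 alternatives.

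**Figure D3:**
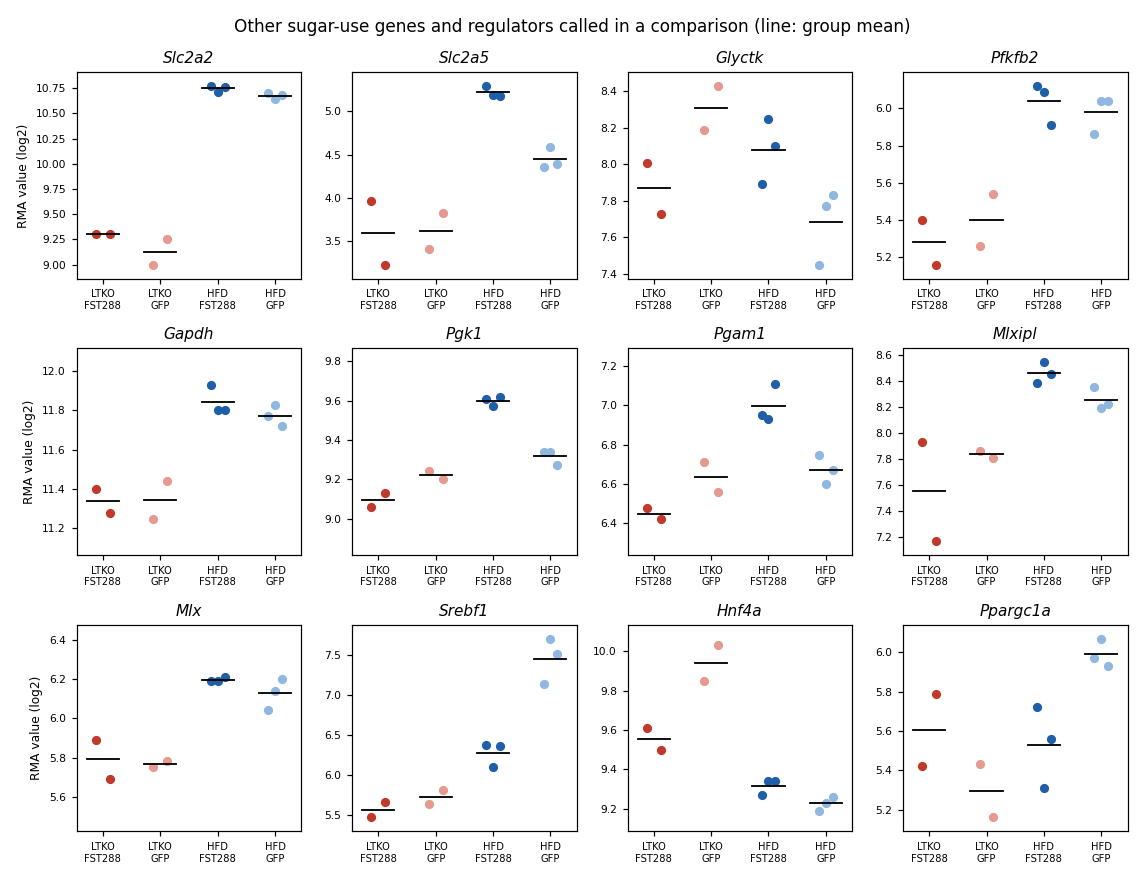
RMA value (log2, y axis, scaled per gene) of 12 further genes of sugar use and its regulation, by group; points are arrays and lines are group means. Slc2a2, Slc2a5, Pfkfb2, Gapdh, Pgk1, Mlxipl, Mlx and Srebf1 are lower on every LTKO array than on every HFD array, and Srebf1 is lower on the HFD FST288 arrays than on the HFD GFP arrays.

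Of the 8 regulators, by limma 3 fell and 1 rose in LTKO GFP against HFD GFP livers, where 6.40% of all genes fell and 6.69% rose. Srebf1, the gene of SREBP-1, fell 3.30-fold (-1.72 ± 0.16; limma, adjusted p = 6.79e-06). Mlx, the partner of ChREBP, fell by 0.37 (limma, adjusted p = 0.0387), which held in 3 of the 10 fits without 1 array and in 8 of all 21 alternatives. Ppargc1a, a coactivator of fasting genes, fell by 0.70 (limma, adjusted p = 0.00698), which was -0.56 without LTKO GFP replicate 2 and not called (adjusted p = 0.0808). Hnf4a, a hepatocyte transcription factor, rose 1.64-fold (limma, adjusted p = 3.71e-05). With FST288 in both, neither of these was called: Ppargc1a stood at 0.08 and Hnf4a at 0.24 (limma, adjusted p = 0.859 and 0.0801). Both LTKO arrays of Hnf4a were still above the HFD arrays there, and it was called in 2 of 21 alternatives. The differences of the FST288 effects, 0.77 in Ppargc1a and -0.48 in Hnf4a, were not called (limma, adjusted p = 0.169 and 0.106).

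Mlxipl, the gene of ChREBP, read 7.86 and 7.81 in LTKO GFP livers, against 8.35, 8.19 and 8.22 in HFD GFP livers. Both LTKO arrays were lower, and the change of -0.42 was not called (interval -0.77 to -0.07; limma, adjusted p = 0.114). It was called with these arrays alone and without either LTKO FST288 array (-0.42 each; limma, adjusted p from 0.00581 to 0.0178). With FST288 it read 7.93 and 7.17 in LTKO livers, against 8.38, 8.54 and 8.45 in HFD livers, and fell by 0.91 (limma, adjusted p = 0.00196). The lowest value was on LTKO FST288 replicate 2, the array with high Kupffer markers; replicate 1 alone was also below the HFD FST288 range. Without replicate 2 the change was -0.53, still called, and without replicate 1 it was -1.29. Leaving out both acinar-high arrays gave -0.83 (limma, adjusted p = 0.0906). Between LTKO FST288 and LTKO GFP livers the change was -0.29 (limma, adjusted p = 0.647); without LTKO FST288 replicate 1 it was -0.67 and called (limma, adjusted p = 0.0144). In LTKO FST288 against HFD FST288 livers Mlx and Srebf1 fell too, by 0.40 and by 0.71 (limma, adjusted p = 0.0285 and 0.00909). The fall of Mlx held in 12 of 21 alternatives. That of Srebf1 held in 18, and was -0.61 without LTKO FST288 replicate 1 (limma, adjusted p = 0.0807).

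With FST288 in HFD livers 1 of the 8 regulators was called by limma, Srebf1, against 0.996% of all genes. At an unadjusted p under 0.05 stood 2, against 12.0% of all genes. The other was Ppargc1a, lower on every FST288 array and not called (-0.46, interval -0.75 to -0.17; limma, adjusted p = 0.151). Srebf1 read 6.37, 6.10 and 6.36 in HFD FST288 livers, against 7.14, 7.70 and 7.51 in HFD GFP livers, and fell 2.26-fold (limma, adjusted p = 0.00108). Its direction was opposite to that of Khk on the same arrays. The change was -1.08 without both acinar-high arrays, which leaves 1 array in the group. With the acinar median as a covariate it was -1.06 and not called (limma, adjusted p = 0.08). In LTKO livers 0 of the 8 regulators were called with FST288 by limma, against 0.167% of all genes. Only 1 had an unadjusted p under 0.05, against 9.98% of all genes. That was Hnf4a, at -0.39 with an interval from -0.57 to -0.2 (limma, adjusted p = 0.138). Srebf1 stood at -0.16 in LTKO livers. The difference of its FST288 effects, 1.01, was not called (limma, adjusted p = 0.0882), so a difference between the backgrounds is not shown.

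For the 6 members called in a comparison, the genes with the most like pattern were sought among 10356 named genes at or above the median level. Likeness was the root mean square difference over the 10 arrays after each gene was centred on its own mean. Elovl6, a fatty acid elongase, was nearest to Pklr, at 0.160 log2 units, where Pklr itself had an SD of 1.58 over the arrays. Acacb, an acetyl-CoA carboxylase, followed at 0.314. Elovl6 read 6.64 and 7.34 in LTKO GFP livers, against 9.92, 9.80 and 9.65 in HFD GFP livers, 6.97-fold lower. Acacb was 7.05-fold lower. Both were picked for their likeness to Pklr, so these folds are a description with no test.

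**Figure D4:**
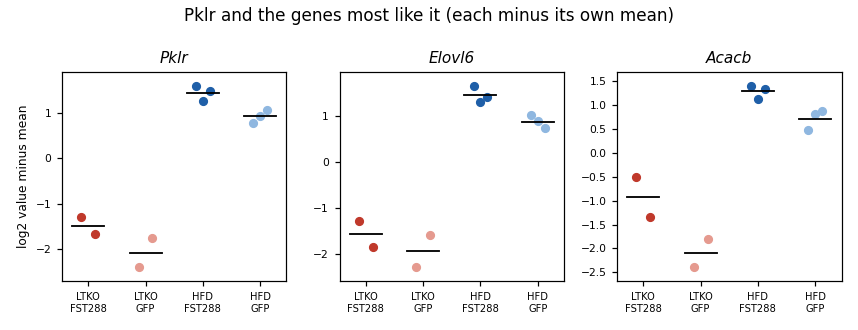
Log2 value minus the gene's own mean over the 10 arrays (y axis) of Pklr, Elovl6 and Acacb, by group; points are arrays and lines are group means. In each gene all HFD arrays lie above 0 and all LTKO arrays below it.

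Nearest to Khk were Ces3b, a carboxylesterase (0.113), and Slc23a1, a vitamin C transporter (0.120), where the SD of Khk was 0.66. Chosen for the same reason, Ces3b stood 0.52 higher with FST288 in HFD livers, where Khk stood 0.51 higher. Tkfc (SD 0.53) was nearest to Ap3m1 (0.105) and Atg4a (0.116), and Pfkfb3 (SD 0.95) to Dpy19l3 and Arhgef26 (0.282 each). Ldha (SD 0.33) was nearest to Gsto1 (0.072) and Etfdh (0.077), and Gckr (SD 0.25) to Arih1 (0.072) and Prkag2 (0.083), a subunit of the energy sensor AMPK. Genes that vary little are close to many others by this measure.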

How the data were processed

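Values are log2 signals from the authors' deposited table; RMA and Affymetrix Expression Console are named in the submitters' processing notes. RMA subtracts background, makes array distributions alike and combines probes into transcript clusters. The log base is read from RMA and the range of values, 0.64 to 13.21. Arrays give no counts, so the number of arrays limits the precision. Of 41345 clusters, 23521 had 1 gene symbol in the supplied platform table, 1814 had several and were left out, and 16010 were not listed. The brightest cluster stood for each of 1082 genes with several, which left 22180 genes.

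Group means were estimated over the 10 arrays together by limma 3.58.1 (R 4.3.3), using eBayes with an intensity trend; residual degrees of freedom were 6 and prior ones 7.155. All 5 contrasts were two-sided, with Benjamini-Hochberg adjustment over all genes within a contrast, and calls were made under an adjusted p of 0.05. Intervals are 95%. The procedure was tested on simulated data. Members and lists were chosen with earlier results of these data known. The text names all members, every wider-list gene called in a contrast and Mlxipl and Slc2a2; Pkm was added after its values were seen. It also names the 2 genes most like each called member. Same-numbered arrays were checked for pairing: deviations correlated at -0.01 to 0.01 in HFD and at -0.07 in LTKO livers. With 2 arrays a group, the LTKO value is 1 correlation that only changes sign for other numbers, at 0.07, so it cannot decide on pairing. The numbers were not taken as pairs, and a fit with the replicate number as a block is given at the end. There were 11 alternatives and 10 leave-one-out fits, and their main results are at the end. The model was varied by no intensity trend, robust moderation, array weights, a replicate block and an acinar covariate. The values were varied by quantile normalization, genes under the median level left out, the mean of a gene's clusters and all transcript clusters. The arrays were varied by the compared groups alone and by both acinar-high arrays left out.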

Additional observations from a re-analysis of the deposited data

How the results depend on the processing

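The falls of Pklr, Khk and Pfkfb3 in LTKO livers held in every alternative fit. Of 832 alternative values of the 8 members, 10 lost a call and 1 gained it, and no called change turned its sign. Only the 12 of 40 pairs of member and comparison called in the fit reported could lose a call. Some fits cannot move a member's change, such as the mean of clusters, as each member has 1 cluster. The 5 members called in LTKO GFP against HFD GFP livers stayed 5 in every fit. Of LTKO FST288 against HFD FST288 livers, 6 were called in the fit reported, 3 without both acinar-high arrays, and 5 to 6 leaving out 1 array. Of HFD FST288 against HFD GFP livers, 1 was called in the fit reported, 2 with the HFD arrays alone, and 0 without the intensity trend (Khk, adjusted p = 0.0789), with all transcript clusters tested (0.0646), with the acinar covariate or without both acinar-high arrays. Leaving out 1 array gave 0 to 1. The change in Khk stayed between 0.46 and 0.54. The other comparisons gave 0 members in every fit. With the replicate number as a block the members called were 1 in HFD livers with FST288, 0 in LTKO livers, 5 with GFP and 6 with FST288 between backgrounds, as in the fit reported.

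Counts over all genes moved more. With FST288 in HFD livers 221 genes were called, 411 with these arrays alone, 101 without the trend, 80 with all clusters, 35 with the acinar covariate, 6 without both acinar-high arrays and 80 to 307 leaving out 1 array. In LTKO livers 37 were called, 0 with these arrays alone by limma (1665 at an unadjusted p under 0.05), 16 without the trend, 22 with array weights, 15 with all clusters, 23 with the covariate, 16 without both acinar-high arrays and 21 to 237 leaving out 1 array, the highest without LTKO FST288 replicate 1. For the difference of effects 48 were called, 3 without the trend, 6 with all clusters, 28 with the replicate block, 5 with the covariate, 1 without both acinar-high arrays and 11 to 266 leaving out 1 array. With GFP 2902 differed between backgrounds (1870 without LTKO GFP replicate 1). With FST288 2293 did, 1071 with the covariate, 939 without both acinar-high arrays and 1533 without LTKO FST288 replicate 2. Only processed values were used here, so background correction and scan batches were not varied.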
